A study of Homo sapiens with 3 samples.

Results

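A set of 10 secretory and mucosal genes, of the 19266 genes in the tables, was followed in KYSE510, an established human line of esophageal squamous cell carcinoma. They are AGR2, AGR3, MUC1, MUC4, MUC16, MUC20, TMPRSS2, PIGR, LCN2 and SLPI, and each was found by its Entrez gene identifier. The set was chosen by name among secretory-cell, mucin and mucosal defence genes after the same contrasts of these libraries were known, so their levels and fold changes are a description and carry no test. The control cells had received lentivirus with a scrambled short hairpin RNA, and the other cells lentivirus with hairpin 1 (sh1) or hairpin 2 (sh2) against the transcript TCONS_02256997. All 3 groups, control included, were exposed to virus for 24 h and then selected in 4 µM puromycin for 48 h. The series was made to look for possible targets of that transcript, whose own level was not analysed here.

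There was 1 sample per group, each with 3 numbered gene tables. Whether these tables stand for separate cultures, libraries or repeat runs is not given in the labels. They were treated as 3 libraries, here called replicates (n = 3 tables per group), and every SD, SE and adjusted p measures only the spread between tables, which may be technical. Total expected counts were 14660821 to 16092417 per table, so that 3 counts, the limit that a count of 0 allows, equal a CPM value (count relative to library size) between 0.186 and 0.205. In bulk RNA such as this, fewer cells expressing a gene and less RNA per cell cannot be told apart. Of 8 squamous markers, 8 reached 1 TPM (transcript abundance scaled for gene length and depth) in control, and of 10 columnar or glandular markers 5 did. The columnar marker TFF3 had 0 counts in every table and KRT20 had 0 in control.

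AGR2 is a disulfide isomerase of the endoplasmic reticulum that helps mucins to fold, and AGR3 is its close paralogue. Mucins are long, heavily O-glycosylated proteins: MUC1, MUC4 and MUC16 span the membrane and form part of the surface coat of epithelia, and MUC20 is a smaller mucin known to bind the receptor MET. The other members act at the same surface, TMPRSS2 as a membrane-anchored serine protease, PIGR as the receptor that carries polymeric immunoglobulins to the lumen, LCN2 as a siderophore-binding antibacterial protein and SLPI as an inhibitor of neutrophil elastase. Glandular and columnar epithelia are the tissues best known for most of these genes, whereas the cells here came from a squamous carcinoma.

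Sequences before the start sites are shown for 4 of the genes: the paralogues AGR2 and AGR3, which lie next to each other; PIGR, which was higher with both hairpins as AGR2 was; and LCN2, whose level moved little. RefSeq promoters (build GRCh38.p14, whereas the expression values were made on hg19) were found for 7 of the 10 genes. Shown are the longest stretches, within the 250 bases before the RefSeq start, that no exon of the GENCODE annotation covers. They read 5′ to 3′ on the gene's strand, and capitals mark matches to the motifs searched. The AGR2 stretch is chr7:16805081-16805249 on the minus strand and the AGR3 stretch chr7:16881988-16882233, also minus. The PIGR stretch is chr1:206946467-206946716 on the minus strand and the LCN2 stretch chr9:128149265-128149440 on the plus strand.
AGR2: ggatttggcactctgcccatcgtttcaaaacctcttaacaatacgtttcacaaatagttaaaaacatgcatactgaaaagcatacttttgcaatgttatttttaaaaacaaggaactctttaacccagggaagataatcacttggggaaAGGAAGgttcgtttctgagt
AGR3: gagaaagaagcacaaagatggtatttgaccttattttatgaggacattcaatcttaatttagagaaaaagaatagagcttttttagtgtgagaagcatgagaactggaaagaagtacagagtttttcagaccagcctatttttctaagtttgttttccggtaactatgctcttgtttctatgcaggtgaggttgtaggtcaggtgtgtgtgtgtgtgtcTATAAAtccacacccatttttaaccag
PIGR: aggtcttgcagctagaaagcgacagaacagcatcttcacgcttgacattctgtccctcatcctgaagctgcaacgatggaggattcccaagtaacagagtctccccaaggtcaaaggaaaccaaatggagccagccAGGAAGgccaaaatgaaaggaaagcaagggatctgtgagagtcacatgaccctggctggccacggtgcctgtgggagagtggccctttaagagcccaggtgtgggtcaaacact
LCN2: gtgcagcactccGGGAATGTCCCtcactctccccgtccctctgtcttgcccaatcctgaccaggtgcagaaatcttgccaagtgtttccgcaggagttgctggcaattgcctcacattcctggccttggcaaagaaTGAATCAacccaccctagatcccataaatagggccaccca

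Both strands of the full 250 bases were searched for 8 motifs, and the share of 35114 RefSeq promoters of that length with a match is given for each. The ETS motif AGGAAG, present in 28.7% of promoters, began 101 bases before the AGR2 start and 114 bases before the PIGR start. The kappa-B motif GGGNNNNNCC, present in 54.4%, matched LCN2 on both strands in overlapping positions, from 176 and 175 bases before the start. LCN2 also had an AP-1 motif, TGANTCA, at 52 bases, a motif that 6.57% of promoters hold. AGR3 had a TATA box, TATAAA, at 31 bases, found in 10.7% of promoters. The E-box CAGCTG (14.0% of promoters) matched AGR2 at 15 bases, and a second ETS match in LCN2 lay at 224 bases, both outside the stretches shown. The other motifs searched were the forkhead motif TGTTTAC (2.98%), the cyclic AMP response core TGACG (21.2%) and the GAS element TTCNNNGAA (6.57%), and they had no match in these 4 promoters. A match is a description of the letters alone.

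Against control, AGR2, MUC20 and PIGR were higher with both hairpins, and MUC4 and SLPI were lower with both. MUC16 and TMPRSS2 went in opposite directions with sh1 and sh2. LCN2 was slightly higher with sh1, and MUC1 stayed close to its control level with both. AGR2 had the largest change of the set, 4.14-fold with sh1 and 5.98-fold with sh2. Genes named here as called had an adjusted p below 0.05 by the quasi-likelihood test of edgeR, Benjamini-Hochberg adjusted over 13580 genes.

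AGR2 (Entrez gene 10551) stood at 14.1, 17.2 and 14 CPM in the 3 control tables. With sh1 its level was 60.3, 63.4 and 63.4 CPM, and with sh2 it was 86.6, 92.7 and 90.8 CPM. The 3 groups did not overlap, sh2 was the highest, and the 2 lower control tables lay close together below the other one. The group means were 15.1 ± 1.82, 62.4 ± 1.8 and 90.1 ± 3.1 CPM (SD, n = 3 tables), and the fitted log2 fold changes were 2.05 ± 0.063 with sh1 and 2.58 ± 0.058 with sh2 (SE). Between the hairpins, sh1 was below sh2 by a log2 value of -0.53 ± 0.044.

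AGR3 (155465) had 1, 0 and 3 expected counts in the control tables, 2, 4 and 3 with sh1, and 7, 6 and 3 with sh2. It was the only gene of the set that did not pass the filter on low counts, and the tables of all groups overlapped. Over the tables of a group it had 4 counts in control, 9 with sh1 and 16 with sh2. Scaled for depth, the sum with sh1 was 2.32 times that of control (95% exact Clopper-Pearson interval 0.647 to 10.3), and with sh2 3.82 times (1.23 to 15.7), for counting error only. A change of AGR3 of the size seen for AGR2 lies inside both intervals, so the depth does not separate the paralogues in fold change. Their levels differed widely: AGR2 was at 220 ± 6.25 TPM with sh2, where AGR3 was at 1.07 ± 0.417 TPM.

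**Figure D1:**
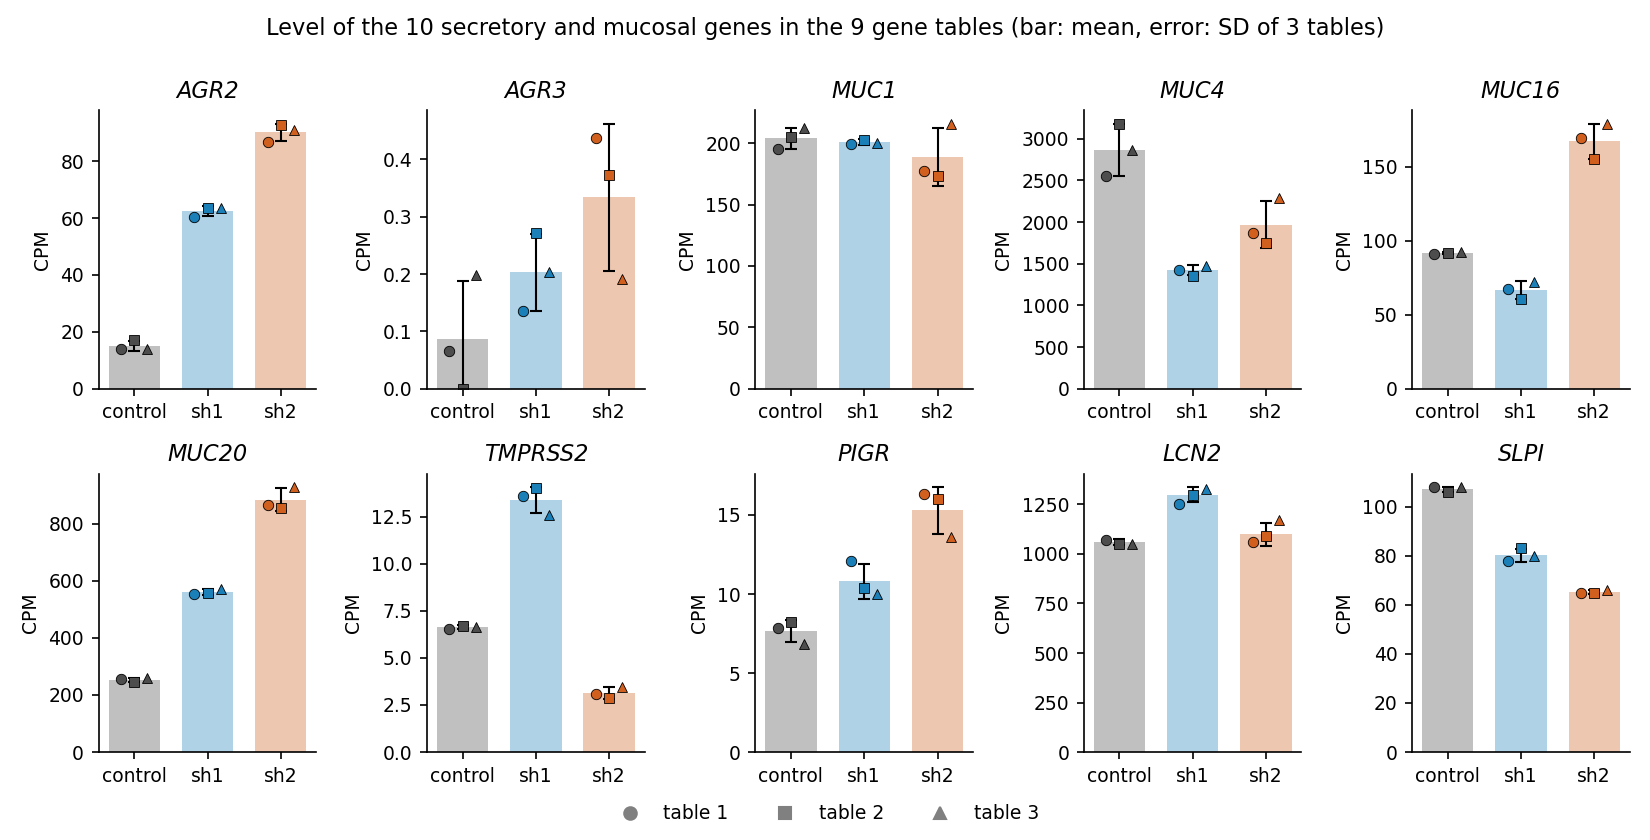
CPM (y axis, from 0, a separate scale for each gene) of the 10 genes in control, sh1 and sh2. Bars are means, error bars SD over 3 tables, and each marker is 1 table. AGR2 rises from 15.1 to 62.4 and 90.1 CPM, while MUC1 stays between 173 and 216 CPM in all 9 tables.

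MUC20 (200958) had 255, 247 and 258 CPM in control. Its level was 553, 558 and 571 CPM with sh1 and 864, 856 and 929 CPM with sh2. The groups were ordered as for AGR2, with no overlap. On the log2 scale the changes were 1.15 ± 0.031 with sh1 and 1.8 ± 0.031 with sh2, a level 2.22 and 3.49 times that of control. MUC20 has a near-identical copy in the genome, MUC20P1, which had no row of its own among the genes analysed here, so reads of the copy may be counted as MUC20.

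MUC4 (4585), a membrane mucin that can act as a partner of the receptor ERBB2, moved the other way. It stood at 2550, 3180 and 2870 CPM in control, at 1430, 1350 and 1470 CPM with sh1, and at 1870, 1750 and 2290 CPM with sh2. The groups did not overlap, but the spread within control and within sh2 was wide: the highest sh2 table lay not far below the lowest control table. The log2 fold changes were -1.01 ± 0.062 with sh1 and -0.54 ± 0.061 with sh2, so that MUC4 was lowest in the cells with sh1. In the RefSeq gene order MUC4 and MUC20 are the nearest tested genes to each other, and they changed in opposite directions with each hairpin.

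MUC16 (94025), a very long membrane mucin, had 90.8, 91.7 and 92.1 CPM in control. With sh1 it had 67.3, 60.3 and 72.1 CPM, all below control. With sh2 it had 169, 155 and 179 CPM, all above control. Relative to control the log2 values were -0.46 ± 0.053 and 0.87 ± 0.046, and the level with sh1 was below that with sh2 by -1.33 ± 0.049 on that scale. As log2(FPKM + 1), which understates the change of low genes, the value for sh1 was -0.29.

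MUC1 (4582), a membrane mucin of most simple epithelia, stood at 195, 205 and 212 CPM in control and at 199, 203 and 200 CPM with sh1. With sh2 it was at 177, 173 and 216 CPM. The 3 sets of tables overlapped, and sh2 replicate 3 was the highest of all 9 tables while the other sh2 tables were the lowest. The log2 fold change was -0.02 ± 0.05 with sh1, which was not called, and -0.11 ± 0.05 with sh2, which was. That last call was lost without control replicate 2 or 3, without sh1 replicate 1, and without sh2 replicate 1 or 2, with log2 fold changes from -0.117 to -0.06 in those fits. Without sh2 replicate 3, the value was larger, at -0.22, and was called.

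**Figure D2:**
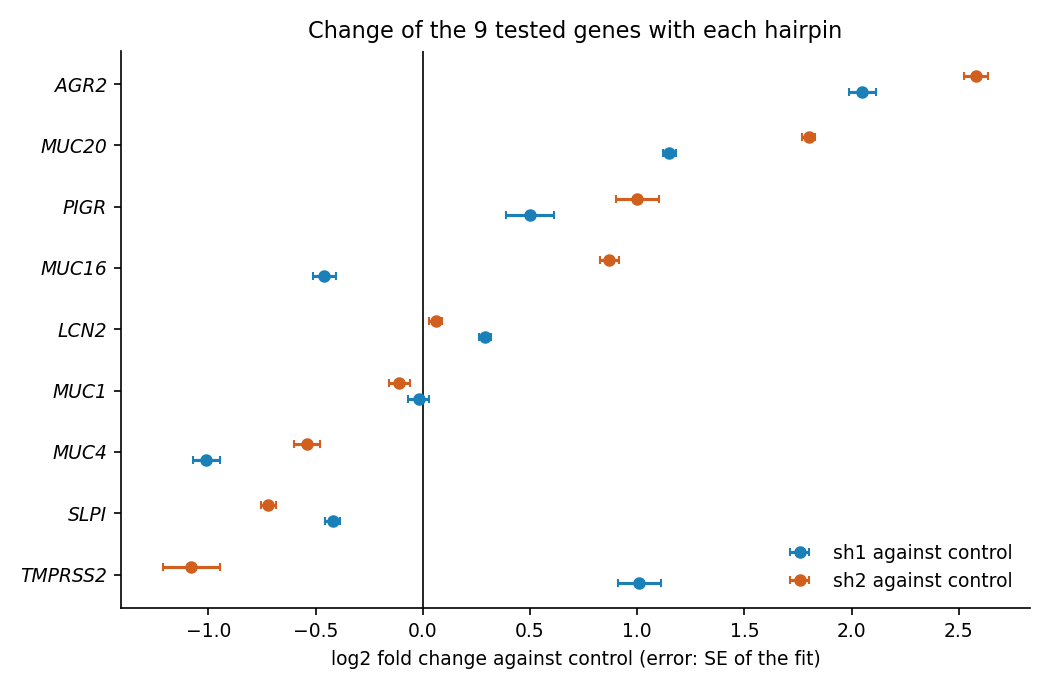
Fitted log2 fold change against control (x axis) of the 9 tested genes (y axis), sh1 in blue and sh2 in orange, with SE as error bars. AGR2, MUC20 and PIGR lie right of 0 and MUC4 and SLPI left of 0 with both hairpins, while MUC16 and TMPRSS2 lie on opposite sides.

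Read per length, the 4 mucins changed rank. In control, MUC4 was at 420 ± 49.2 TPM and MUC20 at 242 ± 6.54 TPM. With sh1 these levels were 201 ± 9.67 and 518 ± 8.53 TPM, and with sh2 they were 276 ± 38.4 and 804 ± 34.6 TPM. MUC4 thus exceeded MUC20 in control, and MUC20 exceeded MUC4 with both hairpins. The ratio of MUC20 to MUC4 in TPM was 0.65, 0.505 and 0.587 in the control tables, 2.51, 2.68 and 2.53 with sh1, and 3, 3.18 and 2.65 with sh2. The hairpin tables all lay above the control tables, and sh1 and sh2 overlapped in this ratio. MUC20 made up 25.6 ± 1.75% of the summed TPM of MUC1, MUC4, MUC16 and MUC20 in control, 52.3 ± 0.292% with sh1 and 60.3 ± 2% with sh2. That sum itself was 948 ± 60.8, 989 ± 17.2 and 1340 ± 103 TPM, higher with sh2 than in control and overlapping between control and sh1.

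**Figure D3:**
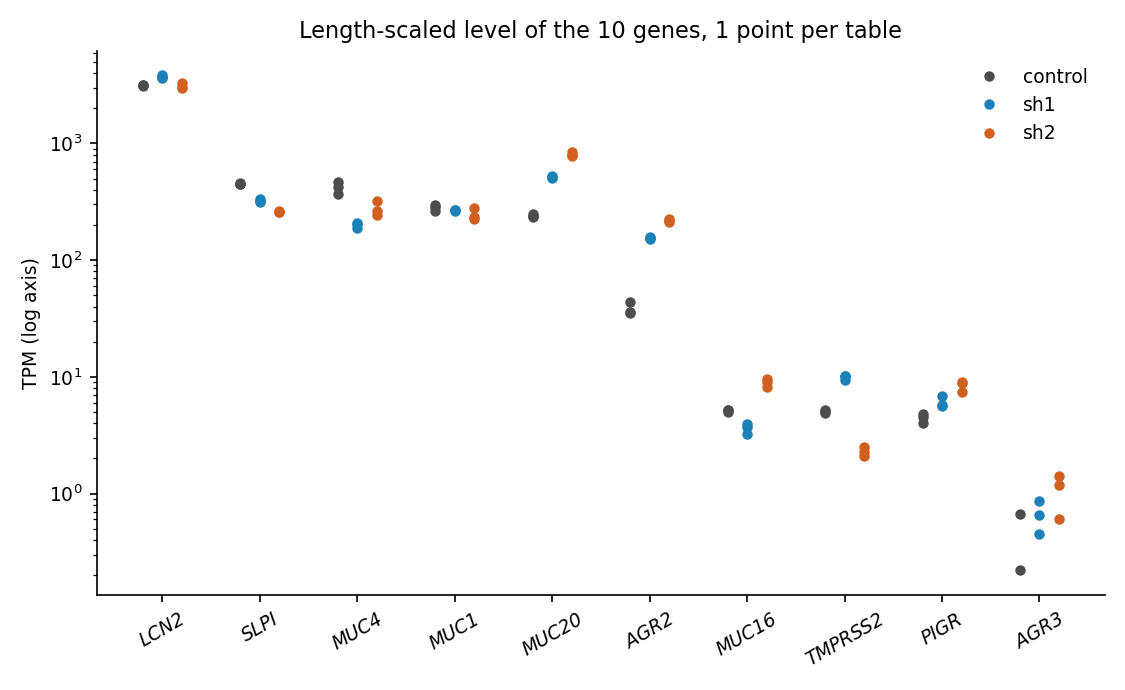
TPM on a log axis (y) of the 10 genes (x, ordered by control level), 1 point per table in control, sh1 and sh2. The AGR3 table at 0 in control cannot be drawn on this axis. LCN2 is the highest gene in every group, and MUC20 moves from the fifth place in control to the second with both hairpins.

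LCN2 had the highest level per length in every group, at 3140 ± 9.16 TPM in control. SLPI followed at 448 ± 4.75 TPM and overlapped MUC4, and MUC1 (281 ± 15.4 TPM) and MUC20 came next. AGR2 was at 38.6 ± 4.77 TPM in control, below all of these. MUC16 at 5.14 ± 0.0971 TPM and TMPRSS2 at 5.08 ± 0.146 TPM overlapped, PIGR was at 4.42 ± 0.385 TPM, and AGR3 was last at 0.297 ± 0.342 TPM. With sh1 the order was LCN2, MUC20, SLPI, MUC1, MUC4, AGR2, TMPRSS2, PIGR, MUC16 and AGR3, with no overlap between neighbours. With sh2 it was LCN2, MUC20, MUC4, SLPI, MUC1, AGR2, MUC16, PIGR, TMPRSS2 and AGR3, where MUC4 overlapped SLPI, SLPI overlapped MUC1, and MUC16 overlapped PIGR. AGR2 thus kept the sixth place in all 3 orders, and with sh2 its highest table (226 TPM) lay just below the lowest table of MUC1 (227 TPM).

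Several of the genes varied widely between the tables of a single sample. Pooled over groups, the SD of MUC4 was 0.152 on the log2 scale, and only 2 of 4961 genes with a mean of at least 50 CPM had a larger one, where the median gene had 0.0438. The SD was 0.107 for MUC1, 0.104 for AGR2 and 0.096 for MUC16. It was 0.0516 for LCN2, 0.0445 for MUC20 and 0.0298 for SLPI. PIGR and TMPRSS2 had 0.14 and 0.088 at means of 11.3 and 7.71 CPM. Counting error weighs more at such levels, so the median of genes of at least 50 CPM is no measure for them. In the sh2 tables, MUC1, MUC4 and MUC16 were all highest in replicate 3, by 0.201, 0.225 and 0.097 above their group means, and all lowest in replicate 2. MUC20 had the same order (0.075 above the mean in replicate 3), and LCN2 was also highest there, by 0.083. TMPRSS2 had that order too (0.141 in replicate 3), but on 49, 46 and 54 counts, which differ by no more than counting error. Over all genes, sh2 replicate 3 stood apart as well: the chi-square per gene was 2.15 and 2.43 between it and the other sh2 tables, against 1.47 between those. In the sh1 tables, MUC4 and MUC16 again were highest in replicate 3 and lowest in replicate 2, and MUC1 was not. In control, MUC4 was highest in replicate 2 and lowest in replicate 1. PIGR was lowest in replicate 3 of every group. What gives these replicates their spread was not tested.

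**Figure D4:**
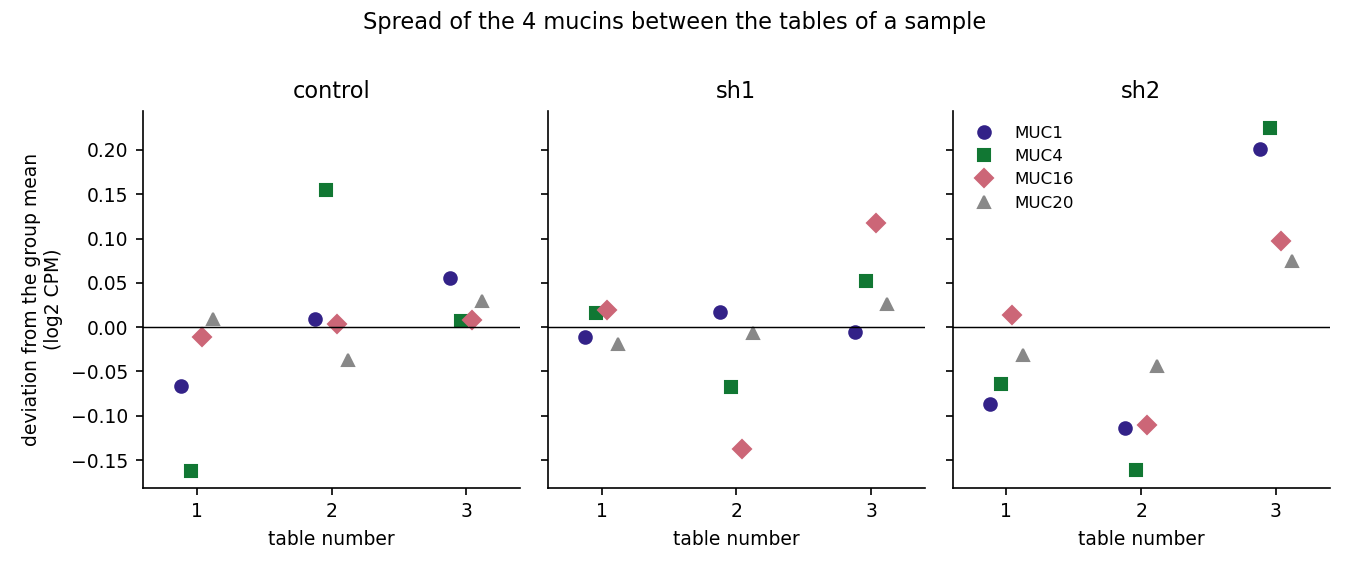
Deviation from the group mean in log2 CPM (y) of MUC1, MUC4, MUC16 and MUC20 in replicates 1 to 3 (x) of control, sh1 and sh2. Points are single tables. In sh2, replicate 3 is above the mean for all 4 genes, by 0.225 for MUC4 and 0.075 for MUC20.

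TMPRSS2 (7113), a protease known as an androgen-regulated gene of prostate epithelium, was a low gene. It had 100, 101 and 101 expected counts in the control tables (6.51, 6.72 and 6.66 CPM), 200, 206 and 186 with sh1, and 49, 46 and 54 with sh2. The 3 groups did not overlap, with sh1 above control and sh2 below it. The log2 fold changes were 1.01 ± 0.1 and -1.08 ± 0.133, and the hairpins differed from each other by 2.1 ± 0.116, the widest gap between sh1 and sh2 in the set. As log2(FPKM + 1), the value for sh2 was -0.63 and the gap 1.38.

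PIGR (5284) had 7.87, 8.25 and 6.86 CPM in control, 12.1, 10.4 and 10 CPM with sh1, and 16.3, 16 and 13.6 CPM with sh2. Its groups were ordered like those of AGR2 and MUC20, without overlap. Fitted log2 fold changes were 0.5 ± 0.11 with sh1 and 1 ± 0.101 with sh2. PIGR was the only gene of the set whose expected counts were not whole, as arises when the estimate divides reads between rows of a table.

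LCN2 (3934) stood at 1070, 1050 and 1050 CPM in control, at 1250, 1300 and 1330 CPM with sh1, and at 1060, 1090 and 1170 CPM with sh2. All sh1 tables lay above all control tables, and the sh2 tables overlapped control. This gave log2 fold changes of 0.29 ± 0.03 with sh1, called, and 0.06 ± 0.03 with sh2, not called. Without sh2 replicate 1 the value for sh2 was 0.093 and was called. For sh2 the direction turned with the unit: the mean was above control in CPM (1100 against 1060) and slightly below it in TPM (3130 ± 151 against 3140 ± 9.16).

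SLPI (6590) had 108, 106 and 108 CPM in control, 77.8, 83 and 79.9 CPM with sh1, and 64.9, 64.8 and 66 CPM with sh2. Its spread between tables was the smallest of the set, the groups did not overlap, and sh2 was lowest. Its log2 fold changes were -0.42 ± 0.036 with sh1 and -0.72 ± 0.037 with sh2. PI3, which encodes the related elastase inhibitor elafin and is the nearest tested gene on one side of SLPI, had log2 fold changes of -0.56 ± 0.079 with sh1 and 0.7 ± 0.065 with sh2 (adjusted p = 2.64e-07 and 8.58e-11, quasi-likelihood test of edgeR, Benjamini-Hochberg adjusted).

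Counts of called members have to be read against a broad response, since the spread between tables was small (2.33% as edgeR's coefficient of variation) and most genes were called. With sh1, 8 of 9 tested members were called, where 69.3% of all tested genes were. Of these, 5 were higher (34.7% of all genes) and 3 lower (34.6%). With sh2, 8 of 9 were again called (68.5% of all genes), 4 higher (34.2%) and 4 lower (34.3%). Between sh1 and sh2, 8 of 9 were called (69.8%), 3 higher with sh1 (34.2%) and 5 lower (35.6%). At least 2-fold changes were seen for 4 members with sh1 (AGR2, MUC20, TMPRSS2 and MUC4), against 9.15% of all genes. With sh2 there were also 4 (AGR2, MUC20, PIGR and TMPRSS2), against 7.75%. PIGR stood at the limit, with a log2 value of 1 after rounding to 2 decimals, whereas the shares over all genes used unrounded values. The 3 members higher with both compare with 19.4% of all genes, the 2 lower with both with 20.2%, and the 2 in opposite directions with 12.7%. The members were selected on these contrasts and both hairpins share the control tables, so nothing is read from these shares. The median log2 fold change of the 9 members was 0.29 with sh1 and 0.06 with sh2, beside 0.01 and 0 over all genes tested.

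The genes whose course over the 9 tables was nearest to that of AGR2, by Euclidean distance in log2 CPM centred on control, were H2BC4, ALPG, NEK10, ALPP and MYL9. Of these, ALPG, NEK10 and MYL9 were very low in control, at 0.57, 0.308 and 0.176 CPM. The value of MYL9 lies below the CPM that equals 3 counts. The nearest was the histone gene H2BC4, at a distance of 0.7 and with a Pearson r of 0.988 over 9 tables, which fall into 3 groups and share their library scaling. H2BC4 had 1.93, 7.82 and 9.89 CPM in control, sh1 and sh2, a lower level than AGR2 at each point. ALPP, the placental alkaline phosphatase, had 6.18, 29.8 and 37.8 CPM, and ALPG is its near-identical copy, so reads may be split between them. The genes nearest to LCN2 were GNAS (distance 0.09, r = 0.979), HNRNPA2B1, LDB1, PPIL2 and C15orf39, all with small changes.

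The 8 lists of related genes were counted beside the members, and their counts stand beside shares over all tested genes of 34.7% higher and 34.6% lower with sh1, and 34.2% higher and 34.3% lower with sh2. Of 18 disulfide isomerases and oxidases other than AGR2 and AGR3 that were tested, 11 were called higher and 4 lower with sh1, and 9 higher and 6 lower with sh2, with median log2 fold changes of 0.36 and 0.06. PDIA3, the most abundant of them, had 0.52 ± 0.027 with sh2 and 1.02 ± 0.027 with sh1, while ERO1B, an oxidase that recharges the isomerases, had -1.14 ± 0.084 with sh1 and -1.54 ± 0.087 with sh2 (largest adjusted p of the 4 values 3.47e-13, edgeR's quasi-likelihood test). Beside these stand the values of AGR2, 2.05 and 2.58.

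Of 18 genes listed as other mucins, 7 were tested. With each hairpin 3 were called higher and 1 lower, and the medians were 0.65 with sh1 and 0.33 with sh2. The lower one was MCAM (-0.39 ± 0.135 and -0.73 ± 0.14), an adhesion molecule kept in this list. MUC15 was called higher with both hairpins, at 1.39 ± 0.096 with sh1 and 0.95 ± 0.1 with sh2. CD164, a sialomucin found in many cell types, had 0.87 ± 0.029 and 0.33 ± 0.03. MUC13, a membrane mucin of the gut, was called with sh1 (1.43 ± 0.223) and not with sh2 (0.52 ± 0.25, adjusted p = 0.0681 in edgeR's test), and MUC22 was called with sh2 (1.29 ± 0.432) on 15 counts in control and 39 with sh2. The call of MUC13 with sh1 held in every alternative fit, but the results of MUC13 with sh2 and of MUC22 with both hairpins were not stable. MUC13 with sh2 was called without sh2 replicate 2 (0.685) and with limma on log2(FPKM + 0.1) (0.414). MUC22 with sh2 lost its call without control replicate 1 (1.02) or 2 (1.035), with DESeq2 (1.306) and with limma on log2(FPKM + 1) (0.101). MUC22 with sh1 (0.65 ± 0.485, not called) was called without control replicate 3 (1.363). The gel-forming mucins that AGR2 is best known for folding were near absent: over the control tables MUC2 had 13 counts, MUC5AC 1 and MUC5B 1. Of 25 tested genes of mucin-type O-glycosylation, 11 were called higher and 4 lower with sh1 and 10 higher and 8 lower with sh2, with medians of 0.03 and 0.02. The initiating transferase GALNT12 had 1.09 ± 0.059 and 1.21 ± 0.057, GALNT1, the most abundant, had 0.2 ± 0.029 and 0.02 ± 0.029, and the sialyltransferase ST6GALNAC2 had -0.43 ± 0.06 and -1.37 ± 0.067.

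Among 14 tested surface serine proteases and their inhibitors other than TMPRSS2, 6 were called higher and 4 lower with sh1, and 6 higher and 2 lower with sh2, with medians of 0.16 and 0.22. TMPRSS11E, a protease of squamous epithelium, had 2.2 ± 0.093 with sh1 and 1.51 ± 0.101 with sh2, beside 1.01 and -1.08 for TMPRSS2. SPINT2, an inhibitor of such proteases, had 0.38 ± 0.028 and 0.4 ± 0.028. Of 14 tested binding partners and receptors of the members (18 listed), 6 were called higher and 5 lower with sh1 and 7 higher and 6 lower with sh2 (medians 0.06 and 0.11). LYPD3, a surface protein reported to bind AGR2, had 11.5 ± 1.41 CPM in control, 50.8 ± 1.54 CPM for sh1 and 32.4 ± 2.78 CPM for sh2, with log2 fold changes of 2.14 ± 0.073 and 1.49 ± 0.079. AGR2 and LYPD3 were thus higher with both hairpins, AGR2 more with sh2 and LYPD3 more with sh1. ANXA2, a surface protein that SLPI is reported to bind, had 0.63 ± 0.026 and 0.23 ± 0.026.

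Other mucosal defence genes numbered 16 tested of 32, of which 6 were called higher and 5 lower with sh1 and 5 higher and 4 lower with sh2 (medians 0.17 and 0.15). WFDC2, which shares the whey acidic protein fold with SLPI, had -0.28 ± 0.048 with sh1 and 0.06 ± 0.046 with sh2. The chemokine gene CCL20 had -1.83 ± 0.046 and -2.97 ± 0.052. S100A7 (3.49 ± 0.135 and 0.68 ± 0.201) and CCL28 (1.33 ± 0.049 and 0.88 ± 0.052) were called higher with both hairpins. LPO, lactoperoxidase, had 54 counts in control, 3 with sh1 and 20 with sh2. Its control level was 17.5 times that with sh1 (95% exact Clopper-Pearson interval 5.67 to 87.4, counting error only). SLPI and CCL20 were both lowest with sh2.

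Of 20 tested genes on the IL17, kappa-B and C/EBP axis upstream of LCN2, not all of them inducers, 14 were called lower and 4 higher with sh1. With sh2, 13 were called lower and 3 higher, and the medians were -0.62 with sh1 and -0.41 with sh2. The cytokine gene IL1A had -3.87 ± 0.052 and -3.24 ± 0.047, and CEBPB, a transcription factor of that axis, had -1.36 ± 0.031 and -0.56 ± 0.029 (largest adjusted p of the 4 values 1.19e-16, edgeR's quasi-likelihood test). NFKBIZ, which encodes IkB-zeta, had 0.26 ± 0.037 with sh1, called, and -0.02 ± 0.038 with sh2, not called. IL1R1 was among the genes called higher, at 0.65 ± 0.072 with sh1 and 1.15 ± 0.066 with sh2. LCN2 itself had 0.29 and 0.06. Of 18 tested transcription factors of secretory and columnar epithelium, 4 were called higher and 8 lower with sh1 and 3 higher and 11 lower with sh2 (medians -0.16 and -0.27). SPDEF, a factor of goblet cell differentiation, was at 0.725 ± 0.181 CPM in control, 2.87 ± 0.205 CPM for sh1 and 0.86 ± 0.096 CPM for sh2 (called with sh1 at 1.97 ± 0.253, not called with sh2 at 0.24 ± 0.321). ELF3, the most abundant, had -0.53 ± 0.026 and -0.11 ± 0.026, and GRHL3 had -0.01 ± 0.095 and -1.67 ± 0.119.

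**Figure D5:**
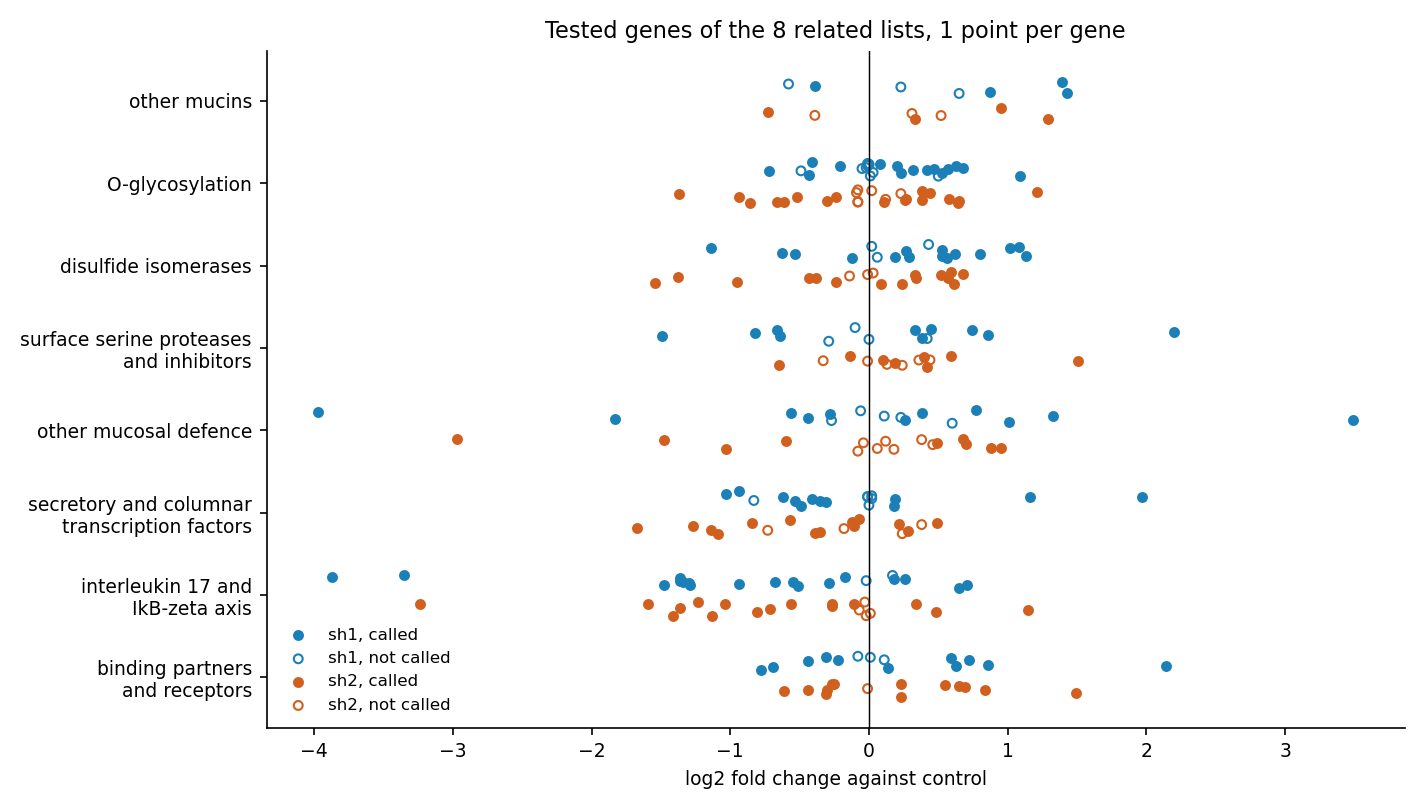
Log2 fold change against control (x) of each tested gene in the 8 lists (y), sh1 in blue and sh2 in orange, filled where called and open where not. Of the IL17 and IkB-zeta list, 14 of 20 genes were called lower with sh1 and 13 with sh2. In that list IL1A lies farthest left, at -3.87 and -3.24. Over all lists, LPO lies farthest left with sh1, at -3.97.

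Markers of epithelial type moved beside AGR2, MUC20 and PIGR. The summed level of the 8 squamous markers was 2090 to 2130 TPM in the control tables, 1270 to 1290 TPM in those of sh1 and 1280 to 1330 TPM in those of sh2. The summed level of the 10 columnar or glandular markers was 5210 to 5230 TPM in control, 5730 to 5840 TPM for sh1 and 6390 to 6510 TPM for sh2. The columnar sum came mostly from KRT8, KRT7, KRT18 and EPCAM, and not all markers of either sum went the same way. KRT5 made up most of the squamous sum, at 1610 TPM in control, 1010 TPM for sh1 and 976 TPM for sh2. TP63 (275, 109 and 120 TPM), KRT14, KRT13, KRT4 and DSG3 were also lower with both hairpins. By contrast, SOX2 went from 20.6 TPM to 47.6 and 32.7 TPM and KRT6A from 55.6 TPM to 55 and 77.2 TPM. Among columnar markers, KRT7 went from 1490 TPM to 1320 and 1760 TPM and KRT18 from 1140 TPM to 1000 and 1410 TPM, whereas KRT8 (2090, 2520 and 2620 TPM) and EPCAM (484, 928 and 657 TPM) were higher with both hairpins. Fibroblast markers summed to 20.2 to 28.1 TPM over all tables, nearly all of it COL1A1, leukocyte markers to 13.1 to 18.2 TPM, and endothelial markers to 6.27 to 10.4 TPM. The part of any of these in the members' levels was not tested.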

How the data were processed

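RNA of KYSE510 cells was sequenced by BGISEQ-500 protocols, according to the labels. The deposited tables give, per the file headers, an expected count, a TPM, an FPKM and a transcript length for each gene. Tools listed in the submitters' processing notes, without roles, are RSEM 1.2.12, Bowtie2 2.2.5, HISAT2 2.0.4 and DESeq2 1.4.5, with the build hg19. For the counting, use of strand was not given in the sources used here; overlapping, antisense and near-identical genes are therefore uncertain. A deposited series table of FPKM values equals the gene tables within 0.01 and was not used.

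Expected counts were rounded and analysed in R 4.3.3 with edgeR 4.0.16 (filterByExpr, TMM, quasi-likelihood fit over all 9 tables with group as the only term), and genes were called at an adjusted p below 0.05. The SE was taken as the size of the log2 value over the square root of F. Within a sample, tables differed by a chi-square of 1.41 to 2.43 per gene, above sampling noise, and each counted as a replicate. With the tables of a sample summed there would be 1 sample per group and no test between samples. The script was tested on simulated counts.

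The members and lists were chosen with earlier results of these data known. From each list the rule named up to 3 genes each of highest TPM and of largest called change with each hairpin, and the text gives the first of each kind. It also named the 5 genes nearest to AGR2 and to LCN2, and the tested neighbours of each member in the RefSeq order of GRCh38.p14. That table gave symbols to 19223 of 19266 identifiers. MUC2, MUC5AC, MUC5B, MUC15, MCAM, S100A7, CCL28, NFKBIZ and IL1R1 were named after their values were seen. Alternatives were DESeq2 1.42.0, its size factors, no count filter, limma 3.58.1 on log2(FPKM + 1) or log2(FPKM + 0.1) of the deposited FPKM values, only the groups compared, a replicate block, and leaving out each table.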

Additional observations from a re-analysis of the deposited data

Results flagged for a closer look

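Opposite changes were marked for MUC16 and TMPRSS2. MUC16 had a log2 fold change of -0.46 with sh1 and 0.87 with sh2, and TMPRSS2 had 1.01 with sh1 and -1.08 with sh2. For both genes every table of one hairpin lay above every control table and every table of the other hairpin lay below. Over all tested genes, 12.7% were called in opposite directions, and how many had tables apart in this way was not counted. In the fit of sh1 against sh2 both were called, at -1.33 ± 0.049 for MUC16 and 2.1 ± 0.116 for TMPRSS2, which is a description, since both genes were chosen with these contrasts known. TMPRSS2 rests on 302 counts in control, 592 with sh1 and 149 with sh2, and MUC16 on 4171, 2944 and 7979.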

How the results depend on the processing

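Each of 27 log2 fold changes of the 9 tested members (3 contrasts) was recomputed under 16 alternatives, 432 values in all, of which 419 kept their direction and their side of the threshold. The exceptions were 12 values of MUC1 and 1 of LCN2. For MUC1 with sh1, the value without control replicate 3 was 0.006 (range over left-out replicates -0.055 to 0.006). The call of MUC1 with sh2 was lost in 9 alternatives, with DESeq2 (-0.12), limma on log2(FPKM + 1) (-0.126) or log2(FPKM + 0.1) (-0.127), only the groups compared (-0.118) and 5 of the fits that leave out a replicate. MUC1 between sh1 and sh2 was called without sh2 replicate 3 (0.196). On log2(FPKM + 1), TMPRSS2 with sh2 was -0.63 and MUC16 with sh1 was -0.29.

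Leaving out 1 replicate gave 9003 to 9532 genes called with sh1, 8867 to 9300 with sh2 and 8983 to 9527 between them, and 8 to 8, 7 to 8 and 8 to 9 members called. DESeq2 called 8421, 8191 and 8383 genes. The replicate numbers gave no clear pairing of the tables. Correlations of same-numbered tables ran from -0.172 to 0.212, and 3 of 9 tables were closest to their own number. Those of number 3 were all positive (0.078, 0.157 and 0.149), so weak pairing cannot be told from none. With a replicate block, 9431, 9295 and 9501 genes and 8, 8 and 9 members were called, the added one being MUC1 between the hairpins (0.093). The sum of MUC20 with its copy MUC20P1 could not be made, since that copy had no row among the genes analysed here, and its reads may be counted as MUC20.

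For 46 other named genes, 1431 of 1471 values kept direction and side of the threshold, 26 lost a call, 5 gained one and 9 changed sign. Calls were lost for TNK2, RIPK4 and FCMR with sh1 and for MUC22, HNRNPA2B1 and TRIM46 with sh2, and gained for MUC22 with sh1 and for MUC13 and LDB1 with sh2. Without control replicates 2 and 3 and sh1 replicate 1, GRHL3 with sh1 was 0.041, 0.032 and 0.074 (range -0.11 to 0.074). AHR with sh1 was 0.015 without control replicate 3 (range -0.023 to 0.015), and C15orf39 with sh2 was -0.017 without sh2 replicate 3 (range -0.017 to 0.061). TNK2 with sh2 was -0.002 with no count filter, -0.014 without control replicate 2 and -0.026 without sh2 replicate 3 (range -0.026 to 0.038). FCMR with sh2 was -0.105 without control replicate 2 (range -0.105 to 0.304). The cause of these changes was not tested. The small spread between tables sets the number of calls, and spread between cultures is not measured by it.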

Other observations

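The neighbours of AGR2 did not share its size of change. TSPAN13, a tetraspanin on one side, had log2 fold changes of 0.7 ± 0.049 with sh1 and 0.36 ± 0.05 with sh2, and AHR, the aryl hydrocarbon receptor on the other side, had -0.01 ± 0.031 and -0.93 ± 0.033 (edgeR adjusted p = 0.773 with sh1). Around MUC20 and MUC4, APOD beside MUC20 had 1.1 ± 0.04 and 0.72 ± 0.04, whereas TNK2 beside MUC4 had 0.09 ± 0.034 and 0.01 ± 0.034. MUC20 and APOD were therefore higher with both hairpins, MUC20 more with sh2 and APOD more with sh1. The neighbours of MUC16, ZNF558 and ZNF317, were lower with both hairpins (-0.33 and -0.37, -0.34 and -0.48), unlike MUC16 with sh2. Beside MUC1, THBS3 had -1.05 ± 0.06 and -0.54 ± 0.055 while MUC1 had -0.02 and -0.11. TRIM46 on its other side had -0.42 ± 0.099 and 0.21 ± 0.089. The TRIM46 call with sh2 was lost without control replicate 2 or 3 or sh2 replicate 3 (0.12 to 0.209). It was also lost with DESeq2 (0.206) and with limma on log2(FPKM + 1) (0.14) or log2(FPKM + 0.1) (0.161). C1orf116 beside PIGR had -0.55 ± 0.057 and -0.61 ± 0.057, opposite in sign to PIGR, and FCMR on its other side had 0.46 ± 0.187 and 0.09 ± 0.194. The FCMR call with sh1 was lost with DESeq2 (0.451) and in 5 of the fits without a replicate (0.273 to 0.471). Next to LCN2, PTGES2 had 0.36 ± 0.039 and -0.04 ± 0.04, and BBLN had -0.37 ± 0.051 and -0.99 ± 0.054. SDC4 beside SLPI had 0.13 ± 0.034 and -0.31 ± 0.034. MX1 and RIPK4 beside TMPRSS2 had 0.05 ± 0.041 and -0.13 ± 0.05 with sh1 and 0.2 ± 0.04 and -0.56 ± 0.052 with sh2.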
